A study of Mus musculus with 4 samples.

Results

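miR-28a and miR-151 are related mouse miRNAs, and the 4 mature miRNAs described here are the 5p and the 3p arm of their hairpins: mmu-miR-28a-5p, mmu-miR-28a-3p, mmu-miR-151-5p and mmu-miR-151-3p. They were found by name among the 668 miRNA names that the tables of SI-Exos and serum exosomes list, and all 4 stand in both tables. SI-Exos are exosomes, small vesicles that cells release, from the epithelium of the small intestine. Exosomes were collected by ultracentrifugation from this epithelium and from serum of male C57BL/6J mice aged 3 or 18 months, on standard chow and with no treatment given in the labels. Each of the 4 groups, 3m-SI-Exos, 18m-SI-Exos, 3m-serum-exos and 18m-serum-exos, was 1 RNA sample and 1 small RNA library. The labels do not say whether 1 mouse or several went into a sample, and none of the differences below has a replicate check.

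A miRNA hairpin carries a mature miRNA on each side of its stem. In the textbook account Dicer cuts out a duplex of both arms, an Argonaute protein keeps one arm as its guide, and the other arm is mostly degraded. The guide finds its targets through its seed, bases 2 to 8, so both arms of a hairpin address different mRNAs. Both hairpins lie inside genes of focal adhesions, the contacts between cells and their matrix. Lpp encodes a LIM domain protein of these contacts and Ptk2 the focal adhesion kinase. In human B cells miR-28 is known as a tumour suppressor, and in human liver cancer cells miR-151-5p is known for promoting migration.

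On GRCm38, Mir28a lies on chromosome 16 from 24827855 to 24827940 on the plus strand. It lies in the eighth of the 12 introns of the Lpp transcript ENSMUST00000038053.13, an intron of 82814 bases. Mir151 lies on chromosome 15 from 73254815 to 73254882 on the minus strand, in intron 22 of the 31 introns of the Ptk2 transcript ENSMUST00000110036.10. Each hairpin has the strand of its host gene and overlaps 0 annotated exons of it.

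The arms of miR-28a are shown because they differed in level, and in serum exosomes in their shares with age, although they come from 1 hairpin. miR-708-5p is shown because it shares a seed with one of them. Neither arm of miR-151 was matched to a RefSeq sequence, so none is printed for it. The sequences are those of RefSeq on GRCm38.p6, written 5′ to 3′ with the seed in capitals.
mmu-miR-28a-5p: aAGGAGCUcacagucuauugag
mmu-miR-28a-3p: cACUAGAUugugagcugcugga
mmu-miR-708-5p: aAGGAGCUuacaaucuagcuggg
The 5p arm covers positions 24827868 to 24827889 of chromosome 16 and the 3p arm 24827908 to 24827929. Bases 5 to 17 of the 5p arm pair with bases 4 to 16 of the 3p arm without a gap, when G:U pairs are counted. The seeds of the arms differ. The RefSeq table held neither arm of miR-151, so their seeds were not compared. Among its mature sequences, miR-708-5p alone shares the seed of miR-28a-5p, and no other sequence has that of miR-28a-3p. miR-708-5p equals miR-28a-5p at 16 of its first 22 positions. Counted from the 5′ end, with the base of miR-28a-5p first, the 6 differences are C9U, G13A, U18G, U19C, G20U and A21G. No other name of either table has a mature sequence that contains, or is contained in, that of one of the 4 miRNAs. This check does not find sequences that share only a part. Whether reads of 1 member were counted under another was not tested.

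The libraries held 212215 (3m-SI-Exos), 71353 (18m-SI-Exos), 832002 (3m-serum-exos) and 778237 (18m-serum-exos) miRNA reads, so that 1 read stood for 4.71, 14.0, 1.20 and 1.28 CPM, the read count scaled to the sum of the miRNA reads of its library. The labelled sources differed in their typical miRNAs. The 8 miRNAs of intestinal epithelium summed to 267248 and 82603 CPM in SI-Exos at 3 and 18 months and to 16850 and 6603 CPM in serum exosomes, with miR-200b-3p alone of them at 0, at 18 months in SI-Exos. The 5 miRNAs of red blood cells summed to 6324 and 37882 CPM in SI-Exos and to 219814 and 540212 CPM in serum exosomes, with 1 at 0 at 3 months in SI-Exos. The 2 of liver, both arms of miR-122, summed to 245 and 350.4 CPM in SI-Exos, where 1 of them is not found, and to 384415 and 26519 CPM in serum exosomes. The 4 of myeloid cells and platelets summed to 37.7 and 322 CPM in SI-Exos and to 803 and 3173 CPM in serum exosomes, with 2 and 1 not found in SI-Exos. These blood cell sums were thus more abundant at 18 months in both sources, and their part in the values below was not tested.

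Both hairpins were detected in every library, and they led with opposite arms in all but 18m-SI-Exos, where the 3 reads of miR-28a and the 66 of miR-151 were all 5p. In the other libraries miR-151 was carried mostly as its 5p arm and miR-28a mostly as its 3p arm. mmu-miR-151-5p had 1039 reads in 3m-SI-Exos, 66 in 18m-SI-Exos, 920 in 3m-serum-exos and 1140 in 18m-serum-exos, which are 4896, 925, 1106 and 1465 CPM. It ranked 28 among 326 miRNAs found in 3m-SI-Exos, 65 among 258 in 18m-SI-Exos, 41 among 486 in 3m-serum-exos and 43 among 496 in 18m-serum-exos. The 3m-SI-Exos library stood above the others, whose exact 95% intervals for counting error were 715 to 1177, 1035 to 1180 and 1381 to 1552 CPM. mmu-miR-151-3p had 10, 0, 106 and 87 reads in the same order, or 47.1, 0, 127 and 112 CPM. It was low in SI-Exos and alike at both ages in serum exosomes.

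mmu-miR-28a-3p had 78 reads in 3m-SI-Exos, 0 in 18m-SI-Exos, 195 in 3m-serum-exos and 52 in 18m-serum-exos, or 368, 0, 234 and 66.8 CPM. Both 3-month libraries were higher than both 18-month libraries. mmu-miR-28a-5p had 11, 3, 41 and 26 reads in the same order, or 51.8, 42.0, 49.3 and 33.4 CPM. Its intervals overlapped in all 4 libraries, from 8.67 to 123 CPM in 18m-SI-Exos, the widest, to 35.4 to 66.9 CPM in 3m-serum-exos. Intervals cover counting error only, and fewer vesicles that carry a miRNA cannot be told apart from fewer copies in each.

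**Figure D1:**
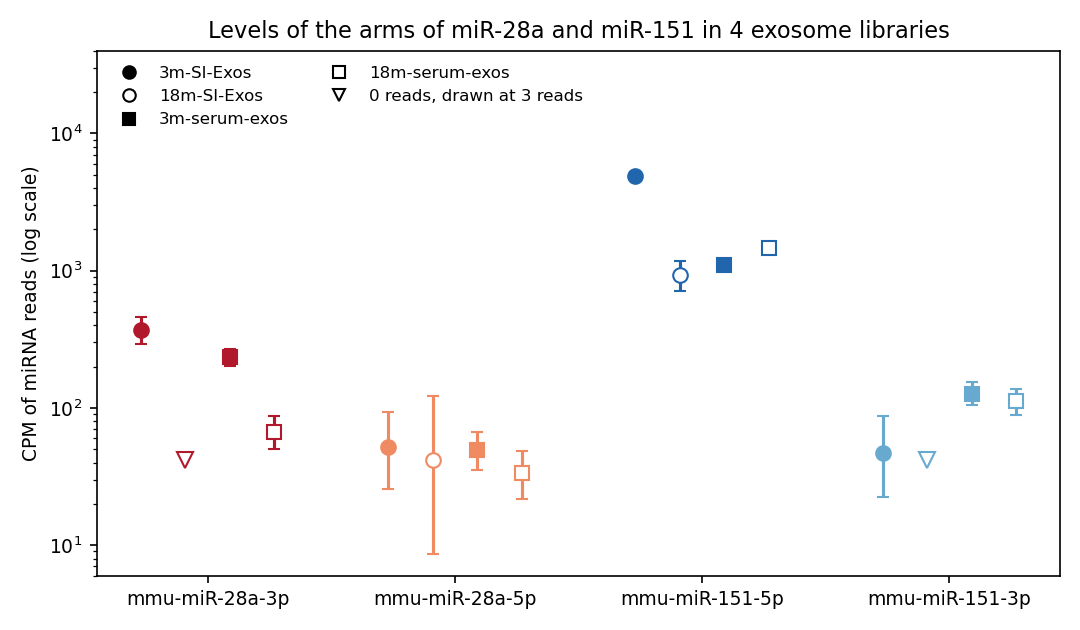
Level of each of the 4 miRNAs (horizontal axis) in 4 libraries, in CPM of miRNA reads on a log axis (vertical axis). Circles are SI-Exos and squares serum exosomes, filled at 3 months and open at 18 months, bars are exact 95% intervals of the count, and triangles mark 0 reads and are drawn at the 42.0 CPM of 3 reads. mmu-miR-151-5p stands at 925 to 4896 CPM, and mmu-miR-28a-3p is higher at 3 than at 18 months in both sources.

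In terms of arms, the 3p arm took 87.6% of the 89 miR-28a reads in 3m-SI-Exos (exact 95% interval 79.0 to 93.7%), 82.6% of 236 in 3m-serum-exos (77.2 to 87.2%) and 66.7% of 78 in 18m-serum-exos (55.1 to 76.9%). Only the 3 reads of 18m-SI-Exos were all 5p, which allows a 3p share of up to 70.8%. In miR-151 the 5p arm took 99.0% of 1049 reads in 3m-SI-Exos (98.3 to 99.5%) and all 66 reads in 18m-SI-Exos, for which the interval of the 5p share was 94.6 to 100%. It took 89.7% of 1026 reads in 3m-serum-exos (87.6 to 91.5%) and 92.9% of 1227 in 18m-serum-exos (91.3 to 94.3%). Among the hairpins with both arms listed and at least 10 reads in a library, the 5p arm led in 30 of 49 in 3m-SI-Exos, 24 of 43 in 18m-SI-Exos, 54 of 86 in 3m-serum-exos and 54 of 83 in 18m-serum-exos. A single arm took at least 90% of the reads in 34, 34, 63 and 57 of these. miR-28a reached that share in none of the 3 libraries where it had at least 10 reads, and miR-151 in all but 3m-serum-exos, at 89.7%.

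**Figure D2:**
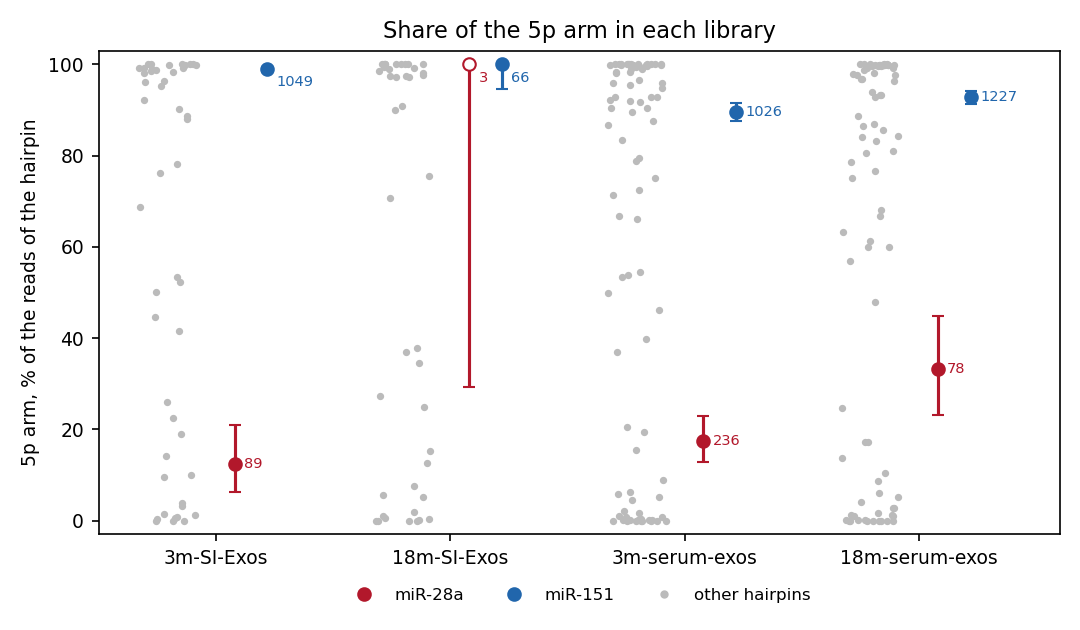
Share of the 5p arm in the reads of each hairpin (vertical axis, in %) in the 4 libraries (horizontal axis). Coloured points are miR-28a and miR-151 with exact 95% intervals and the number of reads beside them, the open point rests on 3 reads, and grey points are the other hairpins with at least 10 reads in that library. miR-151 lies at 89.7% or above in every library, and miR-28a at 12.4 to 33.3% wherever it has at least 10 reads.

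Since the arms of 1 hairpin share a library, the odds of a read being 5p and not 3p do not depend on how libraries are scaled. A hairpin with at least 10 reads in both libraries of a pair was counted as shifted where the exact 95% interval of the odds ratio left out 1 and the odds differed 2-fold or more. An arm without reads in either library also met the fold. In serum exosomes the odds of the 5p arm of miR-28a were lower at 3 months than at 18 months, with a ratio of 0.421 (0.228 to 0.788). There were 4.76 reads of mmu-miR-28a-3p for each read of mmu-miR-28a-5p at 3 months and 2.0 at 18 months. For miR-151 the odds ratio was 0.662 (0.486 to 0.901), an interval below 1, but it stayed short of 2-fold and was not counted. Of 80 hairpins measured in serum exosomes, 15% were shifted, 7 toward the 3p arm at 3 months as miR-28a was and 5 toward the 5p arm. The interval farthest from 1 belonged to miR-122, the miRNA of liver, and miR-223, of myeloid cells, on the 5p side and to miR-199a and miR-486b on the 3p side. The ratio of miR-122 rested on 8 reads of its 3p arm at each age, and reads of miR-486b are uncertain because miR-486a is a near-identical copy. The 3p arm of miR-199a had 203 reads at 3 months and 7 at 18 months, when the 3p arm of miR-199b had 301. Whether reads were counted under the other of these names was not tested.

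In SI-Exos 27.5% of 40 hairpins were shifted between 3 and 18 months, 5 toward the 5p arm at 3 months and 6 toward the 3p arm. Farthest from 1 were let-7i and miR-215 on the 5p side, with an odds ratio of 6.99 (6.42 to 7.61) for miR-215, and miR-141 and miR-301a on the 3p side. The ratio of let-7i rested on 1 read of its 3p arm at 3 months and 9 at 18 months. miR-301a had 11 reads at 3 months, all 3p, and 15 at 18 months, all 5p. miR-151 was not shifted by age in SI-Exos. Its 1039 and 10 reads stood against 66 and 0, and the upper limit of the odds ratio was 7.19, so that a further shift from a 5p share of 99.0% was not detectable at this depth. miR-28a had fewer than 10 reads at 18 months and was not measured for arms. Its 11 reads of the 5p arm and 78 of the 3p arm at 3 months stood against 3 and 0, and the exact upper limit of the odds ratio was 0.397, on 3 reads.

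Between the sources, miR-151 was counted as shifted at both ages, and miR-28a was measured at 3 months alone and not counted. At 3 months the odds of mmu-miR-151-5p over mmu-miR-151-3p were 103.9 in SI-Exos and 8.68 in serum exosomes, a ratio of 12.0 (6.21 to 25.8), and 45.9% of 37 hairpins were shifted there, 10 toward the 5p arm in SI-Exos and 7 toward the 3p arm. At 18 months the odds ratio was 1.68 with the 0 reads of mmu-miR-151-3p in SI-Exos set to 3, and its exact lower limit was 1.30. At this age 41.2% of 34 hairpins were shifted, 6 toward the 5p arm and 8 toward the 3p arm. A shift between the sources was thus frequent among hairpins at both ages. For miR-28a at 3 months the odds ratio was 0.671 (0.296 to 1.42), an interval that holds 1 as well as 3-fold lower odds in SI-Exos. The values of SI-Exos and serum exosomes come from separate tables of raw counts.

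For levels, 10 reads in either library made a miRNA measured in a comparison. A measured miRNA was called where the exact 95% interval of its CPM ratio left out 1 and the ratio was 2-fold or more, or a library had none of its reads. In SI-Exos, the larger arm of each hairpin was called higher at 3 than at 18 months, and no member was called lower. mmu-miR-151-5p was 5.29-fold higher (4.13 to 6.90). mmu-miR-28a-3p was 8.74-fold higher with its 0 reads at 18 months set to 3, and the exact lower limit was 6.94. At the level of 3m-SI-Exos, the shallower 18m-SI-Exos library would have held 26.2 reads of mmu-miR-28a-3p, and it held 0. Of the 98 miRNAs with at least 78 reads in 3m-SI-Exos, 6 had 0 reads in 18m-SI-Exos. One of the 6 was the epithelial miR-200b-3p, named after its values were seen, with 381 reads and 0, while its relatives miR-200a-3p and miR-200c-3p had 614 and 41, and 758 and 42. Whether reads of these miRNAs were lost in the processing was not tested. The smaller arms did not pass. mmu-miR-151-3p, with 10 and 0 reads, had a lower limit of 0.754, and 3.36 reads would have been found at the earlier level. mmu-miR-28a-5p had a ratio of 1.23 (0.326 to 6.88). The 2 calls among 4 stood beside 32.7% of the 214 measured miRNAs called higher and 29.4% called lower, so that they were not frequent against the background. Of the measured miRNAs, 74.3% had a lower log2 ratio than mmu-miR-151-5p.

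Both calls held with the 4 other scalings tried. By the authors' RPM, which relates reads to a larger library total, every ratio of 3 over 18 months in SI-Exos was 2.78-fold higher. RPM called 131 miRNAs higher and 31 lower in place of 70 and 63, and DESeq2 size factors gave 100 and 50. By RPM mmu-miR-151-3p was also called higher, 3.11-fold against 3 reads, with an exact lower limit of 2.09. Of the lists, 5 of 8 epithelial miRNAs were called higher at 3 months and 0 lower (median log2 ratio 2.12), and 3 of 3 measured red blood cell miRNAs were called lower (median -2.79), beside a median of 0.45 over all measured miRNAs. The log2 ratios of mmu-miR-151-5p and mmu-miR-28a-3p, with 0.5 counts added to each library, were 2.39 and 5.72, on the same side as the epithelial list, and the size of the second is set by the added count. The part of the cell types in these ratios was not tested.

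In serum exosomes mmu-miR-28a-3p was the only member called, 3.51-fold higher at 3 months (2.57 to 4.86). The ratio of mmu-miR-28a-5p was 1.48 (0.881 to 2.51) and that of mmu-miR-151-3p 1.14 (0.850 to 1.53), and neither was called. mmu-miR-151-5p was 1.32-fold higher at 18 months, and its ratio of 0.755 (0.691 to 0.824) left out 1 but was under 2-fold. With 18.3% of 251 measured miRNAs called higher at 3 months and 25.9% lower, 1 call among 4 was near the background. The median log2 ratio over all measured miRNAs was -0.38, and 88.4% of them had a lower ratio than mmu-miR-28a-3p and 48.2% a lower one than mmu-miR-151-5p. Totals without the 5 most abundant miRNAs gave 67 called higher and 38 lower in place of 46 and 65. The log2 ratio of mmu-miR-151-5p, -0.41, was thus close to this median, and with those totals its ratio was 0.990 (0.907 to 1.081), an interval that holds 1. By TMM, DESeq2 and RPM its ratio was 0.862, 0.807 and 0.837, with intervals under 1. Of the lists, 1 of 8 epithelial miRNAs was called higher at 3 months and 3 lower (median log2 ratio -0.30). Of 5 red blood cell miRNAs, 0 were called higher and 4 lower (median -1.68). The 1 measured miRNA of liver was called higher, with a log2 ratio of 3.86. Of 4 miRNAs of myeloid cells and platelets, 0 were called higher and 1 lower (median -0.40). The log2 ratio of mmu-miR-28a-3p, 1.80, was thus on the side of the liver miRNA here. It was not on that of the epithelial, red blood cell and myeloid medians. The part of the cell types was not tested.

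The age ratio of mmu-miR-151-5p in SI-Exos was 7.01 times that in serum exosomes (5.37 to 9.26), from the 4 counts and 1 library per group. This quotient moved with the scaling, to 4.82 (3.69 to 6.37) without the 5 most abundant miRNAs, 6.46 by TMM, 9.38 by DESeq2 and 17.6 (13.5 to 23.2) by the authors' RPM, scalings applied to it after the data had been seen. For mmu-miR-28a-3p, higher at 3 months in both, this quotient was 2.49 with 0 reads set to 3. Its exact lower limit was 1.89, which was 1.30 without the 5 most abundant miRNAs and 4.73 by RPM. Since it has a lower limit only, it cannot be ranked against that of mmu-miR-151-5p. For mmu-miR-28a-5p it was 0.836 (0.193 to 5.06), which leaves a difference of up to 5-fold in either direction possible, and for mmu-miR-151-3p the lower limit was 0.637, or 1.59 by RPM.

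**Figure D3:**
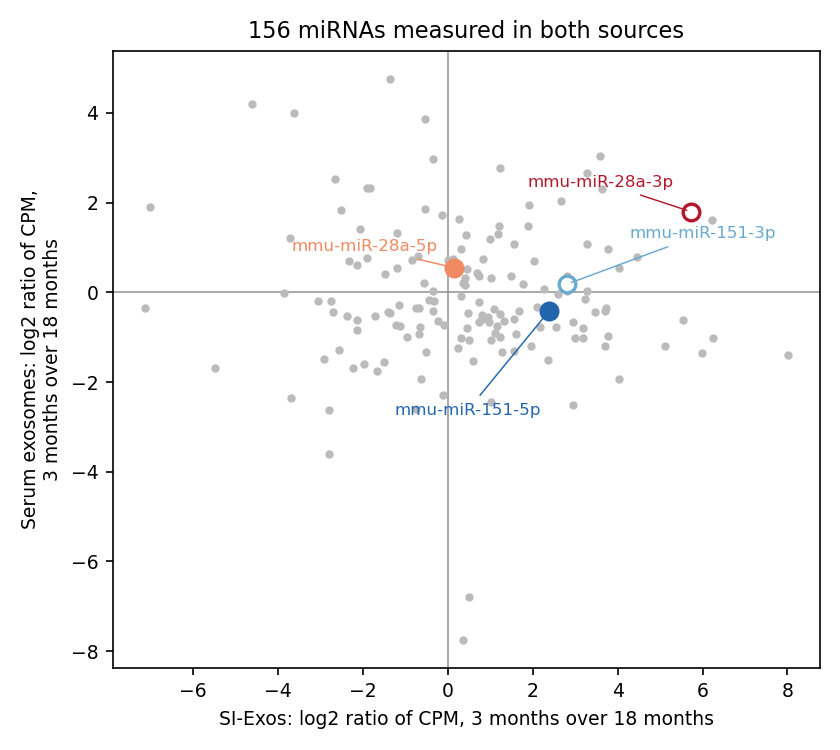
Log2 ratio of CPM, 3 months over 18 months, in SI-Exos (horizontal axis) and in serum exosomes (vertical axis) for the 156 miRNAs measured in both, with 0.5 counts added to each library and 1 library per group. Coloured points are the 4 members, open where the 18m-SI-Exos library had 0 reads, and grey points are the 152 others. mmu-miR-28a-3p lies to the upper right at 5.72, a value set by the added count, and 1.80, and mmu-miR-151-5p at 2.39 and -0.41.

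Set across the sources at 3 months, mmu-miR-151-5p was 4.43-fold higher in SI-Exos than in serum exosomes (4.05 to 4.84), whereas by TMM factors it was 1.99-fold higher and not called, and by the authors' RPM its ratio was 0.858. mmu-miR-151-3p was lower in SI-Exos, with a ratio of 0.370 (0.172 to 0.707), and was lower under every scaling tried. Of 235 measured miRNAs, 44.3% were called higher in SI-Exos and 28.1% lower, and the split of 104 and 66 became 79 and 105 by TMM, 82 and 99 by DESeq2, 82 and 97 without the 5 most abundant miRNAs and 50 and 133 by RPM. The ratios of mmu-miR-28a-3p, 1.57 (1.19 to 2.05), and of mmu-miR-28a-5p, 1.05 (0.488 to 2.08), were not called, and both lay under 1 with each of the 4 other scalings. Of these, RPM called both lower in SI-Exos (0.304 and 0.204) and TMM called mmu-miR-28a-5p lower, at 0.473 (0.219 to 0.937).

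At 18 months the ratio of mmu-miR-151-5p in SI-Exos to serum exosomes lay under 1, at 0.631 (0.485 to 0.810), and was not called by CPM. It was called lower by TMM (0.281), DESeq2 (0.333) and RPM (0.0488). mmu-miR-151-3p and mmu-miR-28a-3p, with 0 reads in 18m-SI-Exos, were called lower there, the second through the rule on 0 reads alone. At the level of serum exosomes, 7.98 and 4.77 reads would have been found in that library, and the exact upper limits of the ratios were 0.472 and 0.802. Of 231 measured miRNAs, 34.2% were called higher in SI-Exos and 31.2% lower, and the split of 79 and 72 became 63 and 107 by TMM, 67 and 98 by DESeq2 and 41 and 173 by RPM. mmu-miR-28a-5p had a ratio of 1.26 (0.244 to 4.11) on 3 and 26 reads, and was called lower by RPM (0.0973).

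Within each library miR-151 outnumbered miR-28a, both arms added up. It had 11.8 reads for each read of miR-28a in 3m-SI-Exos (9.49 to 14.8), 22 in 18m-SI-Exos (7.21 to 109), 4.35 in 3m-serum-exos (3.77 to 5.03) and 15.7 in 18m-serum-exos (12.5 to 20.0). The quotient was lowest in 3m-serum-exos, and its intervals at both ages in serum exosomes did not overlap, while those in SI-Exos did. The 3p arms alone ran the other way. mmu-miR-151-3p had 0.128 reads for each read of mmu-miR-28a-3p in 3m-SI-Exos (0.0592 to 0.249) and 0.544 in 3m-serum-exos (0.425 to 0.692), and 1.67 in 18m-serum-exos (1.17 to 2.41), the only library in which the 3p arm of miR-151 was the more abundant. This quotient, too, does not depend on the scaling.

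The rest of the family was nearly absent. Of miR-28b, miR-28c and both arms of miR-708, only miR-708-5p is listed, with 1, 5, 5 and 1 reads in 3m-SI-Exos, 18m-SI-Exos, 3m-serum-exos and 18m-serum-exos, and it was not measured in any comparison. miR-28a-5p held more reads than this seed mate in all libraries but 18m-SI-Exos, where 3 stood beside 5. Known miRNAs whose genes all lie inside a protein-coding gene on its strand, as those of both hairpins do, were 240 of the 446 placed in the annotation. In SI-Exos 14 of 60 measured ones were called higher at 3 months and 18 lower (median log2 ratio 0.14), and in serum exosomes 12 of 84 higher and 22 lower (median -0.41), next to the medians of 0.45 and -0.38 over all.

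The miRNAs most alike in pattern were sought among 146 known miRNAs by the distance between log2 CPM over the 4 libraries, each miRNA centred on its own mean, with 0.5 counts added. Arms of the same hairpin were not neighbours. Seen from mmu-miR-28a-3p, mmu-miR-28a-5p stood at place 59 and mmu-miR-151-5p at place 33, and seen from mmu-miR-151-5p, mmu-miR-151-3p stood at place 97. Nearest to mmu-miR-151-5p was let-7d-5p, a member of the let-7 family, at a distance of 0.39, with 20625, 4807, 4255 and 5315 CPM, followed by miR-18a-5p and miR-20b-5p, both with 0 reads in 18m-SI-Exos. Nearest to mmu-miR-28a-3p were miR-378b at 1.22, miR-341-3p and miR-1983, all with 0 reads in 18m-SI-Exos. Nearest to mmu-miR-28a-5p were miR-378a-5p at 0.16, miR-30a-3p and miR-361-5p, and nearest to mmu-miR-151-3p were miR-676-3p at 0.15, miR-20a-5p and miR-872-3p. The order rests on 4 libraries and, where a library had 0 reads, on the added count. With 2 counts added, 1 of the 3 nearest was shared for mmu-miR-28a-3p and for mmu-miR-151-5p and 2 of 3 for the other arms.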

How the data were processed

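Reads per mature miRNA were deposited by the authors as counts, from 1 small RNA library for each group. Bowtie2 2.2.9 and the build GRCm38 are named by the submitters' processing notes. Options and the treatment of reads matching several miRNAs were, beyond this, not given in the sources used here. Kit and sequencer are MGI and DNBSEQ in the labels, while the study's methods name another kit (VAHTS) and another sequencer (HiSeq) for its SI-Exos miRNA sequencing. The authors also deposited RPM, relative to a larger library total of which the miRNA reads made up 1.14% and 0.411% in SI-Exos and 5.89% and 5.31% in serum exosomes. The deposited log2 ratios, p-values and FDR are the authors' own comparisons and were not used.

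Counts were scaled to the sum of the miRNA reads. Ratios received exact (Clopper-Pearson) 95% intervals from the conditional binomial of 2 counts, and arm odds ratios conditional exact ones. PCR reads without molecular identifiers are not independent molecules, so these intervals can be too narrow. They cover the counting error of independent reads only. They compare libraries, not conditions, and no p-value was made. A count of 0 was set to 3 reads for bounds, which leave out the counting error of the larger count, so exact limits are given beside them. Every miRNA was put through the same rule, across all miRNAs of a table. The rule was also run on simulated counts with counting error only, which cannot show how it fares with spread between libraries. Members and lists were chosen with earlier results of these data known. The named miRNAs were the members, their family, the 3 nearest to each in pattern and, for arms, the 2 hairpins farthest from 1 in each direction in each age comparison. Alternatives were TMM (edgeR 4.0.16), DESeq2 1.42.0 size factors, RPM, totals without the 5 most abundant miRNAs, minimums of 1 and 50 reads, folds of 1.5 and 4, and 2 added counts. Genes were placed with GENCODE M21 (GRCm38), and 2 of the 4 members were matched to RefSeq sequences. Python 3.11.15, scipy 1.17.1, pandas 2.3.3, numpy 2.4.6, matplotlib 3.10.9 and R 4.3.3 were used.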

Additional observations from a re-analysis of the deposited data

Results flagged for a closer look

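By CPM, the ratio of 3 months to 18 months of mmu-miR-151-5p lay on either side of 1 in the 2 sources, at 5.29 in SI-Exos (4.13 to 6.90), called higher, and 0.755 in serum exosomes (0.691 to 0.824), not called. The serum ratio stayed under 1 with the 4 other scalings, at 0.862 (0.789 to 0.941) by TMM, 0.807 by DESeq2 and 0.837 by RPM. With totals without the 5 most abundant miRNAs it was 0.990 (0.907 to 1.081), an interval that holds 1. The quotient of the ratios was 7.01 (5.37 to 9.26) by CPM and 4.82 to 17.6 under the 4 other scalings. Beyond counting error the difference was not tested, since each group has 1 library.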

How the results depend on the processing

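Of 128 member ratios recomputed under the alternatives, 106 kept their direction and their side of the rule and 12 reversed. The minimums and folds leave a ratio itself unchanged, so that only the scalings could reverse one. Ratios not measured at a minimum of 50 reads, among them those of mmu-miR-28a-5p, were counted as kept. In all, reversals included, 11 came to be called and 4 were no longer called. Of 26 arm odds ratios 23 kept their side of the rule, under minimums and folds alone, which leave the odds ratio unchanged. The reversals all lie between the sources, where other scalings than CPM move every log2 ratio by -0.95 to -2.37 at 3 months and, but for totals without the 5 most abundant (0.03), by -0.92 to -3.69 at 18 months. At 3 months, SI-Exos over serum exosomes, the ratio of mmu-miR-28a-3p became 0.705 by TMM, 0.800 by DESeq2, 0.304 by RPM and 0.810 without the 5 most abundant, and that of mmu-miR-28a-5p 0.473, 0.537, 0.204 and 0.543, of which 0.304, 0.473 and 0.204 were called lower. That of mmu-miR-151-5p became 1.99 by TMM, no longer called, and 0.858 by RPM, not called. At 18 months that of mmu-miR-28a-5p became 0.560 by TMM, 0.663 by DESeq2 and 0.0973 by RPM, the last called lower, and mmu-miR-151-5p came to be called at 0.281, 0.333 and 0.0488. In serum exosomes the age ratio of mmu-miR-151-5p was 0.990 without the 5 most abundant. In SI-Exos mmu-miR-151-3p came to be called higher at 3 months by DESeq2 and by RPM. Against 3 reads its ratio was 1.603 by DESeq2, with an exact lower limit of 1.08. By RPM it was 3.11, with an exact lower limit of 2.09. The DESeq2 call passed through the rule on 0 reads alone. A 1.5-fold rule adds mmu-miR-28a-3p at 3 months (1.57) and mmu-miR-151-5p at 18 months (0.631) between the sources and the arms of miR-151 in serum exosomes (0.662). A 4-fold rule removes mmu-miR-28a-3p by age in serum exosomes (3.51), where it leaves 41 of 111 calls, the arms of miR-28a there (0.421) and mmu-miR-151-3p between the sources at 3 months (0.370). A minimum of 50 reads leaves 78 of 133 calls by age in SI-Exos and 67 of 111 in serum exosomes, with fewer miRNAs measured. A minimum of 1 read measures the arms of miR-28a by age in SI-Exos and counts them as shifted toward the 3p arm at 3 months. The odds ratio was 0.141 with 0 reads set to 3, and its exact upper limit was 0.397, on 3 reads at 18 months. Reads of family names whose sequence contains, or is contained in, that of a member could not be added, since no such name was found. No paired analysis was possible because each group has 1 library, and no library could be left out. The 71353 miRNA reads of 18m-SI-Exos limit what is detectable there.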
